A study of Mus musculus with 2 samples.

Results

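Egfl7, Ecscr, Emcn, Cd34 and Clec14a are 5 genes of endothelial identity, and they were followed here through endothelial cells and tumor cells of 2 mouse mammary tumor models. They were chosen by name out of 33696 genes, with their levels in these cells already known, because part of the set was also counted in cells that carry tumor markers and no blood endothelial markers. Their levels in the cell classes are therefore a description. PyMT-M (High-MAC, macrophage-enriched) and PyMT-N (Low-MAC) are sub-lines of the MMTV-PyMT tumor, in which the mouse mammary tumor virus promoter drives the polyoma middle T antigen in mammary epithelium. Both grew in the mammary fat pad of young adult female C57BL/6 mice, with no treatment named, and 3 tumors of each were dissociated separately, depleted of CD45 and Ter119 cells, enriched for endothelial cells, sorted for CD31 and CD144 and then pooled into 1 droplet library per model. With 1 library per model there is no replicate, so no difference was tested. Intervals are 95% counting intervals, exact Poisson for levels and exact Clopper-Pearson for shares of cells, and cover counting error only. The limit that a count of 0 allows is set at 3 counts.

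The endothelium lines blood and lymphatic vessels, and its cells share a set of surface and secreted proteins that set them apart from epithelium. Egfl7 encodes a protein that endothelial cells secrete into their matrix, and an intron of the gene carries the microRNA miR-126. Ecscr is a transmembrane regulator of endothelial cell migration and survival. Emcn, a sialomucin, and Cd34, a sialomucin also carried by blood progenitors and some fibroblasts, coat the endothelial surface, and Clec14a is a C-type lectin receptor of growing vessels. Transcription factors of the ETS family, Erg among them, bind a GGAA core and maintain many endothelial genes.

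The promoters of the genes are shown because the genes were high together in blood endothelium and went apart in tumor cells. The 250 bases before the annotated start were taken from RefSeq on build GRCm38.p6, in gene orientation, for Clec14a, Cd34, Egfl7 and Emcn. Capitals mark each GGAA or TTCC, the ETS core on either strand. Egfl7 has 3 annotated starts, of which the first is shown. No window of Ecscr was taken.
Clec14a, chr12:58269259-58269508, minus strand: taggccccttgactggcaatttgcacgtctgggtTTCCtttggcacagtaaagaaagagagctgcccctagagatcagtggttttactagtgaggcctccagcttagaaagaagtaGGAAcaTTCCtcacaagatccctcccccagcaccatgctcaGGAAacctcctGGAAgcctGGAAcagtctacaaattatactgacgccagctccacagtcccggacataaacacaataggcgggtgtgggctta
Cd34, chr1:194938571-194938820, plus strand: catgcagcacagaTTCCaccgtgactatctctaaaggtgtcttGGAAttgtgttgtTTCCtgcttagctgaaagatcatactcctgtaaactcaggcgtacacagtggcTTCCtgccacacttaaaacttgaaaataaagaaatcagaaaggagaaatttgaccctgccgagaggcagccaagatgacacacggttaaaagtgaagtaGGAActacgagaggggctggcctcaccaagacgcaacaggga
Egfl7, chr2:26580833-26581082, plus strand: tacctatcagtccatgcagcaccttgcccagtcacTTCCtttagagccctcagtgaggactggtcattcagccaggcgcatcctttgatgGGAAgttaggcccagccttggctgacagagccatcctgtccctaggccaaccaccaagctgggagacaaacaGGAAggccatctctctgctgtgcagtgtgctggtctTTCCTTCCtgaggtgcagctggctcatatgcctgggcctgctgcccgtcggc
Emcn, chr3:137340828-137341077, plus strand: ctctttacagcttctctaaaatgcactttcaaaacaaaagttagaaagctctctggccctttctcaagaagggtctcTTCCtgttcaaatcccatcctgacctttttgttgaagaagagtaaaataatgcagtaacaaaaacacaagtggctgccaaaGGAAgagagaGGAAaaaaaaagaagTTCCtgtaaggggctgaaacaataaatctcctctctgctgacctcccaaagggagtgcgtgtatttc
The core was found 6 times in the Clec14a window, 5 times in those of Cd34 and Egfl7 and 4 times in that of Emcn. The other Egfl7 starts held it 3 times (chr2:26583615-26583864) and 1 time (chr2:26586386-26586635). These letters are common, since 93.4% of 32851 RefSeq mouse promoter windows of this length held at least 1 core and the median was 3. As many as in Clec14a stood in 8.69% of windows, as many as in Cd34 in 18.0%, and as many as in Emcn in 33.4%. A match is a description of the letters and no sign of a bound factor.

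Kept cells had at least 200 detected genes and at most 10% mitochondrial UMIs, which left 6719 of 7821 barcodes in PyMT-M and 5607 of 6974 in PyMT-N, from 141067264 and 116150425 UMIs in the whole libraries. UMI rules on fixed markers then set the classes. Blood endothelial cells (Pecam1, Flt1 and Kdr, at least 5 UMIs together) numbered 569 in PyMT-M and 1063 in PyMT-N, lymphatic cells (Prox1, Mmrn1 and Reln, at least 3 UMIs) 20 and 207, and tumor cells (Krt8, Krt18 and Rhox5, at least 3 UMIs, with no UMI of Pecam1 or Flt1) 4902 and 3306. The label "endothelial" of the sorted samples thus goes against the markers of most kept cells. The markers of the tumor rule differed in level between the models. Rhox5 stood at 669 CPM (a gene's UMIs scaled to all UMIs of the class) in PyMT-M tumor cells and at 14.5 in PyMT-N. Krt18 stood at 0.0662 and 1003 CPM. Krt8 was counted in PyMT-M tumor cells too, at 268 CPM and with a UMI in 90.6% of them. Small classes of myeloid (101 and 19), lymphocyte (225 and 93) and fibroblast-like cells (41 and 60) served for comparison, and together the classes took 87.2% and 84.7% of kept cells. The 2 libraries shared 12 kept barcodes, of which 4 were tumor cells in both. Median depth differed between classes, at 5279 UMIs in blood endothelial and 23715.5 in tumor cells of PyMT-M, and at 12715 and 20757.5 in PyMT-N.

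Blood endothelial cells held all 5 genes at high levels in both models. Egfl7 stood at 1669 CPM (1625 to 1714) in PyMT-M and 1297 CPM (1279 to 1316) in PyMT-N, and 97.9% and 95.8% of the cells had at least 1 UMI. Emcn was at 873 and 1020 CPM, Cd34 at 674 and 704 CPM, and Ecscr at 572 and 689 CPM. Clec14a was the least counted of them, at 109 CPM (97.5 to 120) and 62.0 CPM (58.1 to 66.1), with a UMI in 38.0% and 43.6% of cells. These are counts of 3′ ends, so they carry no gene length, but how well each 3′ end is captured can differ between genes. The level in blood endothelial cells was over 2-fold that in tumor cells for 5 of 5 genes in each library, beside 19.3% of 11315 genes in PyMT-M and 17.4% of 11765 in PyMT-N, and the choice of the genes fixes that count.

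Between the models, blood endothelial levels moved little. Egfl7 was 1.29-fold higher in PyMT-M (log2 ratio 0.36, 0.32 to 0.41), Ecscr and Emcn were lower there (log2 ratios -0.27 and -0.22), and the interval for Cd34 spanned 0 (-0.061, -0.13 to 0.0056). Clec14a differed the most, at 1.75-fold higher in PyMT-M (log2 ratio 0.81, 0.63 to 0.99). Its ratio depended on which cells were kept, and was smaller with the study's limit on gene number, as given in the closing section. None of the 5 reached 2-fold in either direction, where 2.54% of 8539 genes were at least 2-fold higher in PyMT-M and 4.22% at least 2-fold lower, around a median log2 ratio of -0.0057. Immune RNA differed between these 2 classes, as Ptprc stood at 10.5 CPM in PyMT-M and 83.9 CPM in PyMT-N and C1qa at 0.309 and 113 CPM. In PyMT-N, 80 of the 1063 cells held more than 1 UMI of the myeloid and lymphocyte markers, and Egfl7 was at 498 CPM in these against 1387 CPM in the other 983. Without such cells the log2 ratios were 0.28 for Egfl7, -0.36 for Ecscr, -0.31 for Emcn and -0.15 for Cd34.

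**Figure D1:**
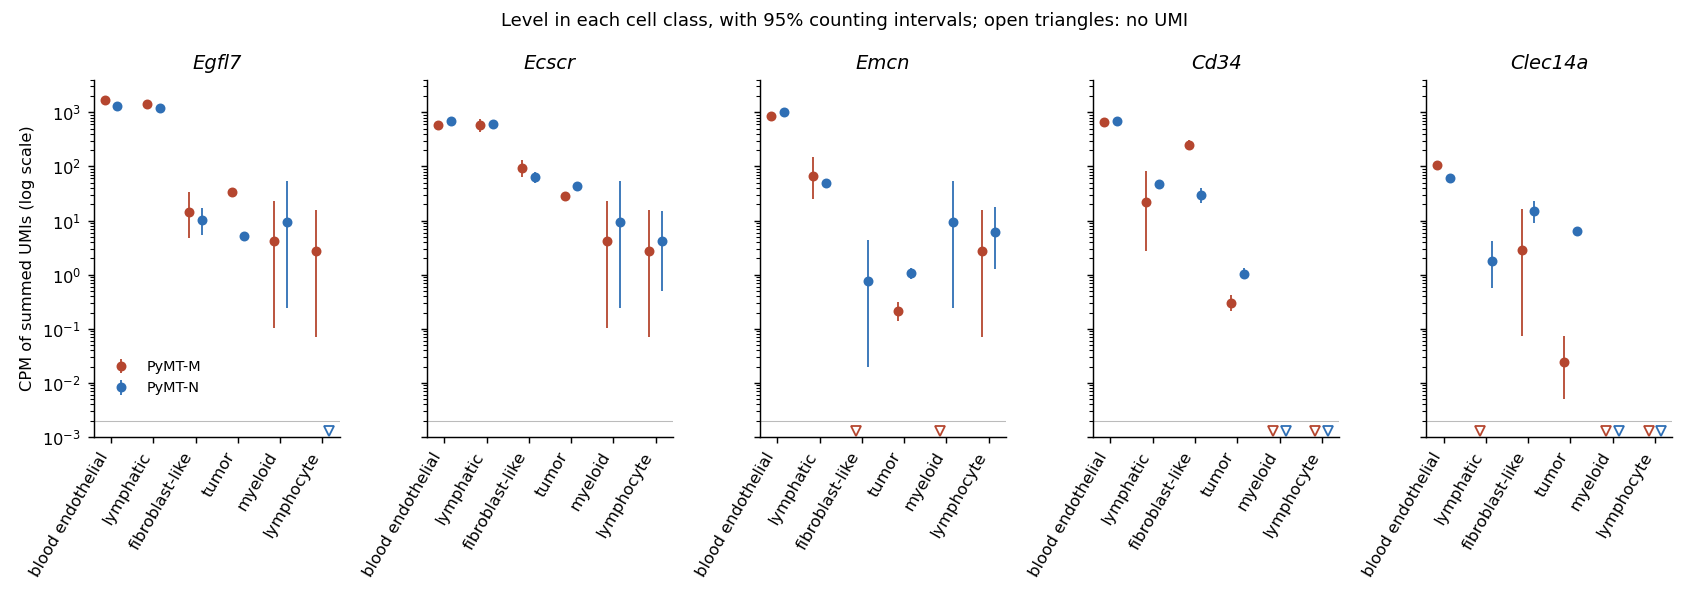
CPM of each gene (log axis) in 6 cell classes of PyMT-M (red) and PyMT-N (blue), with 95% counting intervals; open triangles below the grey line mark classes with no UMI. Blood endothelial cells lay between 62.0 and 1669 CPM for all 5 genes, and in tumor cells Egfl7 and Ecscr lay between 5.19 and 43.7 CPM while Emcn and Cd34 lay at or below 1.06 CPM.

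Lymphatic cells split the set. Egfl7 and Ecscr stayed near their blood endothelial level there, at 1404 and 584 CPM in the 20 cells of PyMT-M and 1227 and 604 CPM in the 207 cells of PyMT-N. In PyMT-N this was 94.6% (91.2 to 98.1) and 87.6% (83.2 to 92.2) of the blood endothelial level. Emcn and Cd34 fell to 49.0 and 48.3 CPM in PyMT-N, where 26.6% and 29.0% of lymphatic cells had a UMI against over 94% of blood endothelial cells for each. Clec14a was nearly missing, at 5 UMIs in 207 cells (1.76 CPM, 0.572 to 4.12) and 0 UMIs in 20 cells of PyMT-M, which allows a share of cells with a UMI of up to 15.0% and a level of up to 33.7 CPM. Those 20 cells were shallow, with a median of 3558 UMIs against 11692 in the lymphatic cells of PyMT-N, so a low level may have gone uncounted in them. Between the models the lymphatic log2 ratios of the 4 counted genes had intervals that spanned 0 (0.19 for Egfl7, -0.075 to 0.45, and -0.048 for Ecscr, -0.47 to 0.35), beside 4.71% of 2911 genes at least 2-fold higher and 14.2% at least 2-fold lower in PyMT-M.

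Inside blood endothelium Clec14a was higher in cells with venous markers and lower in cells with tip or capillary markers, in both models. Cells with venous markers (Ackr1, Selp, Ephb4 and Lrg1, at least 3 UMIs together) held Clec14a at 178 CPM (150 to 209) in PyMT-M and 78.5 CPM (72.9 to 84.4) in PyMT-N. Cells without them held it at 84.5 CPM (73.3 to 96.9) and 34.0 CPM (29.3 to 39.2), so cells with venous markers were higher in both models. The venous rule took 149 of 569 blood endothelial cells in PyMT-M and 654 of 1063 in PyMT-N. Cells with tip markers (Apln, Esm1, Cxcr4 and Pgf) were lower than those without, at 70.9 against 148 CPM in PyMT-M and 55.0 against 72.2 CPM in PyMT-N. Capillary markers (Gpihbp1, Cd300lg, Car4 and Timp4) also went with less of it, at 98.1 against 147 CPM and 58.1 against 81.0 CPM, while Cd34 was higher in capillary-marked cells, at 728 against 480 CPM and 771 against 373 CPM. Arterial markers (Gja5, Gja4, Bmx, Sema3g and Hey1) went with more Clec14a in the 53 such cells of PyMT-M, at 203 against 101 CPM, and not in the 171 of PyMT-N, at 63.4 against 61.7 CPM.

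Emcn, which marks veins and capillaries in many beds, was at 597 CPM (505 to 700) in arterial-marked and 896 CPM (862 to 931) in other blood endothelial cells of PyMT-M. In PyMT-N the levels were 1011 and 1021 CPM, with overlapping intervals. Cd34 was higher in arterial-marked cells of both models, at 804 against 663 CPM and 839 against 673 CPM. Egfl7 and Ecscr were lower in cycling cells (Top2a, Mki67, Cenpf and Ube2c), with Egfl7 at 1298 against 1770 CPM in PyMT-M and 1040 against 1341 CPM in PyMT-N. Most cells met several of these rules (328 of 569 and 827 of 1063), and the comparison of each rule on its own was chosen for that reason after the data were seen. The 43 blood endothelial cells of PyMT-N that met none of the rules held all 5 genes at low levels, with Egfl7 at 274 CPM, and 39.5% of them had an Egfl7 UMI.

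Tumor cells counted the 5 genes very unequally. Egfl7 was at 34.4 CPM (33.3 to 35.4) in PyMT-M and 5.19 CPM (4.69 to 5.73) in PyMT-N, and Ecscr at 28.7 CPM (27.7 to 29.7) and 43.7 CPM (42.2 to 45.2). Clec14a was at 6.39 CPM (5.84 to 6.99) in PyMT-N, from 483 UMIs, and at 0.0248 CPM in PyMT-M, from 3 UMIs in 4902 cells. Emcn and Cd34 were near 0 in both, with 26 and 37 UMIs in PyMT-M (0.215 and 0.306 CPM) and 80 and 79 UMIs in PyMT-N (1.06 and 1.05 CPM). The set therefore fell into genes counted in tumor cells of both models (Egfl7 and Ecscr), of PyMT-N alone by more than 3 UMIs (Clec14a), and barely in either (Emcn and Cd34).

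RNA that is free in the suspension enters every droplet and keeps its genes in 1 ratio, so each gene was set beside 29 other endothelial genes of a fixed list (Cdh5, Esam, Cldn5, Tie1 and others, with no gene of the class rules). The median gene of that list stood in tumor cells at 0.122% of its blood endothelial level in PyMT-M and at 0.171% in PyMT-N. The tumor rule leaves out cells with a UMI of Pecam1 or Flt1, and so selects against cells that hold endothelial RNA. How far this lowers the list's levels, and raises the multiples of its median given below, was not tested. Both the 5 genes and the list were chosen with earlier results of these data known. The ranks and multiples below are therefore a description and no test against free RNA. Egfl7 stood at 2.06% (1.98 to 2.14) in PyMT-M, 16.9 times the list's median, with 25 of 29 list genes below it. In PyMT-N it stood at 0.400% (0.361 to 0.442), 2.33 times the median, with 21 of 29 below. Ecscr stood at 5.01% (4.74 to 5.31) and 6.34% (6.09 to 6.59), which is 41.2 and 37.0 times the median, with 25 and 27 of 29 below.

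Clec14a stood high beside the list in PyMT-N and low in PyMT-M. In PyMT-N it stood at 10.3% (9.21 to 11.5) of its blood endothelial level, 60.2 times the median, with 27 of 29 below. In PyMT-M it stood at 0.0229% (0.00469 to 0.0674), below all 29 but from 3 UMIs. That interval held list genes such as Adgrl4 (0.0242%) and Erg (0.0434%), so the rank in PyMT-M is not resolved. Emcn stood at 0.0246% and 0.104%, or 0.203 and 0.606 times the median, and Cd34 at 0.0454% and 0.149%, or 0.373 and 0.868 times. For Emcn and Cd34 the tumor level was thus under the median of the list in both models. A tumor level of at most 1% of the blood endothelial level was found in 3 of the 5 genes in each library, beside 2.47% and 3.05% of all genes compared, and nothing is read from this since the genes were chosen on such levels.

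**Figure D2:**
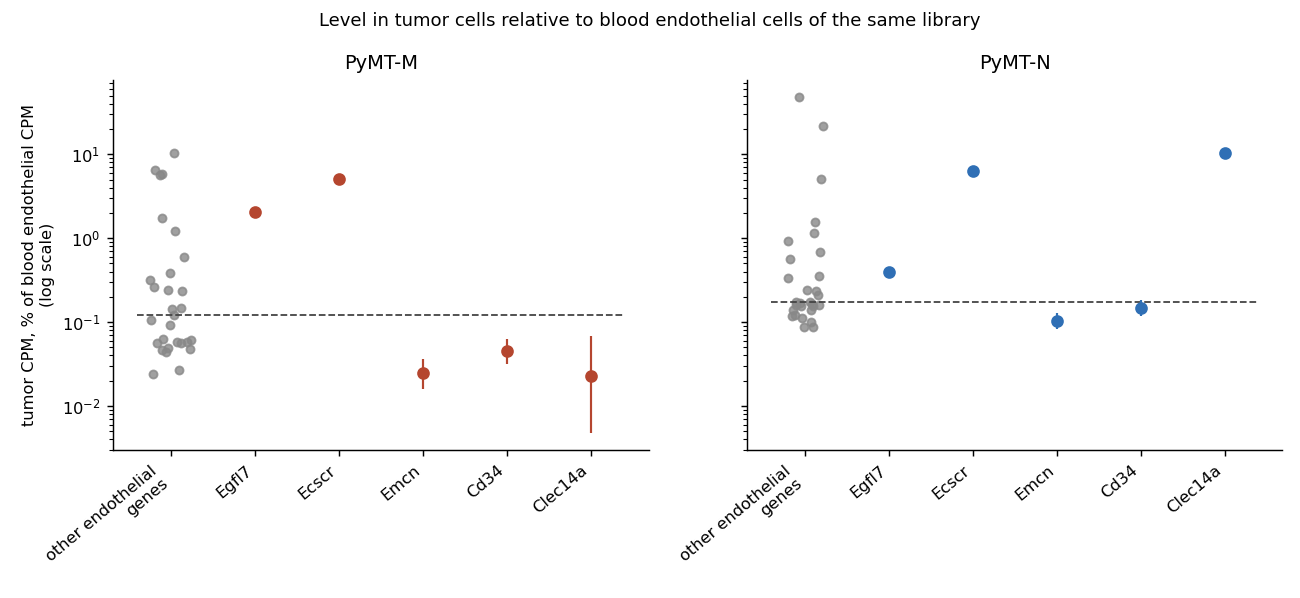
Tumor-cell CPM as a percent of blood endothelial CPM (log axis) in each library, for 29 other endothelial genes (grey points, dashed line at their median, 0.122% in the left panel and 0.171% in the right one) and for the 5 genes with 95% counting intervals. Ecscr lay above the dashed line in both, Emcn and Cd34 below it, and Clec14a lay at 0.0229% in PyMT-M and 10.3% in PyMT-N.

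The list was not uniform either, which limits it as a measure of free RNA. In PyMT-M, 6 of 29 genes stood above 1%, led by Sox7, an endothelial transcription factor (10.2%), Eng, a co-receptor of the TGF-β family (6.57%), and Ramp2, a partner of the adrenomedullin receptor (5.79%). In PyMT-N, 5 of 29 did, led by the water channel Aqp1 (48.8%), the adrenomedullin receptor Calcrl (21.7%) and the fenestral protein Plvap (5.05%). At the low end stood Adgrl4, Ptprb and Erg in PyMT-M (0.0242%, 0.0268% and 0.0434%) and Robo4, Adgrl4 and Gpihbp1 in PyMT-N (0.0880%, 0.0884% and 0.101%). Cdh5, which encodes the sorted protein CD144 (VE-cadherin), stood at 0.383% and 0.171%.

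Immune cells of the same libraries gave a second yardstick, because they passed through the same suspension and should lack these genes. Their rules also left out cells with a UMI of Pecam1 or Flt1, as the tumor rule did. Immune cells were far shallower, with median depths of 1368.5 UMIs in PyMT-M and 3933 UMIs in PyMT-N, so the comparison was made both per UMI (CPM) and per cell. The 326 myeloid and lymphocyte cells of PyMT-M held 2 UMIs each of Egfl7 and Ecscr, or 3.33 CPM (0.403 to 12.0). At the CPM of tumor cells they would hold 20.6 and 17.2 UMIs, so the tumor level was 10.3 times the immune one for Egfl7 (2.86 to 85.3) and 8.62 times for Ecscr (2.38 to 71.2). Per cell, where depth enters, the ratios were 138 (38.2 to 1140) and 115 (31.9 to 952).

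In PyMT-N, Ecscr had 3 UMIs in the 112 immune cells (5.08 CPM, 1.05 to 14.8), where the tumor CPM would give 25.8, a ratio of 8.60 (2.94 to 41.7). Egfl7 had 1 UMI (1.69 CPM, 0.0429 to 9.43), where the tumor CPM would give 3.06, and the interval of the ratio included 1 (3.06, 0.547 to 121). Its 1 UMI was in the 19 myeloid cells, where it amounts to 0.735% (0.0186 to 4.10) of the blood endothelial level, beside 0.400% in tumor cells. The 2 measures thus differed for Egfl7 in PyMT-N. By CPM tumor cells were not distinguishable from immune cells, while per cell the interval of the ratio lay above 1 (13.3, 2.37 to 526). Both ratios rest on 1 immune UMI, and which measure fits free RNA better was not tested. Clec14a had 0 UMIs in the 112 cells, where the tumor CPM would give 3.78, and the lower bound of the ratio was 1.02 by CPM and 4.42 per cell.

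Emcn and Cd34 were not higher in tumor cells than in immune cells by any interval. Emcn had 4 UMIs in the 112 immune cells of PyMT-N (6.77 CPM, 1.85 to 17.3), above the tumor level by CPM (ratio 0.156, 0.0587 to 0.588) and with an interval that included 1 per cell (0.678, 0.255 to 2.55). In PyMT-M it had 1 UMI, with ratios of 0.129 by CPM (0.0212 to 5.30) and 1.73 per cell (0.284 to 70.9). Cd34 had 0 UMIs in both, where the tumor CPM would give 0.184 and 0.617, too few for a comparison. By neither measure did an interval put Emcn in tumor cells above immune cells, and Cd34 could not be compared at this depth.

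Without thinning, shares of cells showed the same order as CPM, except that Egfl7 stood above Clec14a in PyMT-N. In PyMT-M, 51.3% of tumor cells (49.9 to 52.7) had an Egfl7 UMI, 42.2% an Ecscr UMI, and 0.428%, 0.612% and 0.0612% a UMI of Emcn, Cd34 and Clec14a. In PyMT-N the shares were 10.5% for Egfl7, 45.7% for Ecscr, 9.47% for Clec14a, 2.39% for Emcn and 2.12% for Cd34. The immune cells of these libraries had shares of 0.613% for Egfl7 and Ecscr in PyMT-M (0.0745 to 2.20), and of 0.893%, 2.68% and 3.57% for Egfl7, Ecscr and Emcn in PyMT-N. For genes with 0 UMIs in immune cells, that count allows a share of up to 0.920% in PyMT-M and 2.68% in PyMT-N. These shares are at unequal depth. With cells thinned to 1000 UMIs, an alternative added after seeing the data that 267 and 109 immune cells pass, Egfl7 and Ecscr were in 2.86% (2.41 to 3.36) and 3.02% (2.56 to 3.54) of PyMT-M tumor cells and each in 0.375% (0.00948 to 2.07) of immune cells. In PyMT-N the thinned tumor shares were 0.544% for Egfl7, 3.72% for Ecscr and 0.696% for Clec14a, all within the immune intervals, which reached 3.33% for Egfl7 and Clec14a and 5.01% for Ecscr. With every cell thinned to 5000 UMIs, tumor shares were 15.4% and 2.63% for Egfl7 and 12.2% and 16.6% for Ecscr (PyMT-M and PyMT-N), and 3.12% for Clec14a in PyMT-N. Thinning left out 14 tumor cells of PyMT-M and 4 of PyMT-N, but 266 of 569 and 41 of 1063 blood endothelial cells. At that depth blood endothelial cells had shares of 98.3% and 95.2% for Egfl7, 92.4% and 91.4% for Ecscr, and 34.0% and 24.4% for Clec14a.

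**Figure D3:**
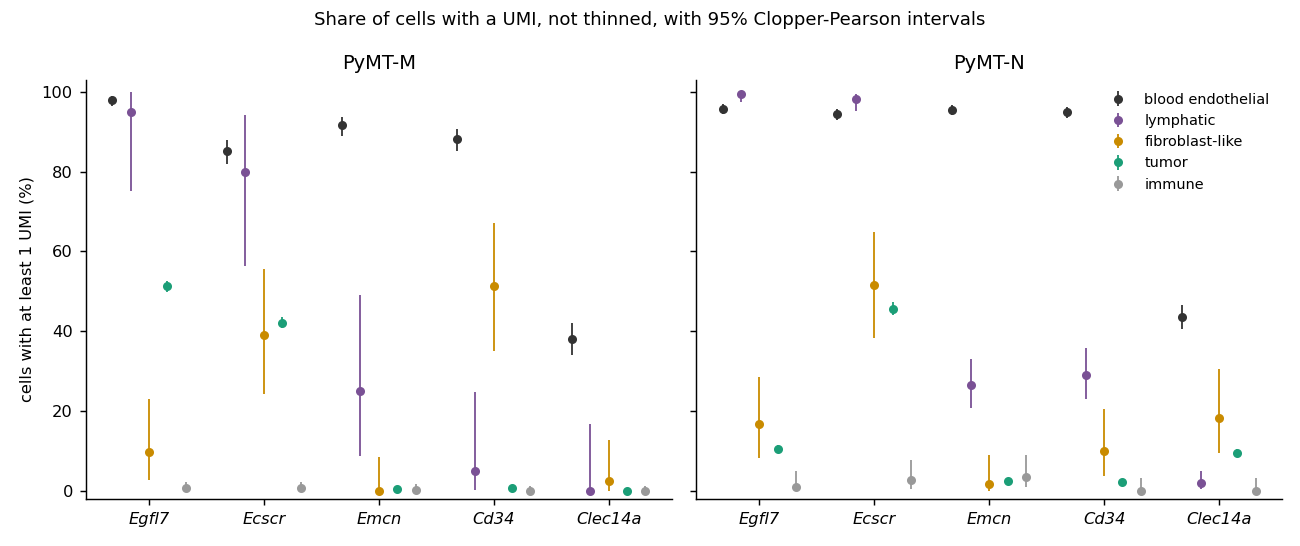
Share of cells with at least 1 UMI of each gene, not thinned, in 5 cell groups of each library with 95% Clopper-Pearson intervals; immune cells are myeloid cells and lymphocytes together. Tumor cells (green) lay at 51.3% for Egfl7 and 42.2% for Ecscr in PyMT-M and at 10.5% and 45.7% in PyMT-N, above the shallower immune cells (grey), and near 0 for Emcn and Cd34.

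Tumor cells of the models differed in these genes far more than blood endothelial cells did. Egfl7 was 6.62-fold higher in PyMT-M (log2 ratio 2.73, 2.58 to 2.88), and Ecscr was 1.52-fold higher in PyMT-N (log2 ratio -0.61, -0.68 to -0.54). Clec14a had a log2 ratio of -8.01 (-10.3 to -6.45), from 3 UMIs against 483. Emcn and Cd34 were lower in PyMT-M too (log2 ratios -2.30 and -1.77), from 26 and 37 UMIs there. Some list genes with few tumor-cell UMIs were lower there as well. Cldn5 stood at 0.298 CPM in PyMT-M and 1.30 CPM in PyMT-N, and Vwf at 0.232 and 0.926 CPM. Esam and Tie1 moved less (log2 ratios -0.23, -0.64 to 0.18, and -0.30, -0.87 to 0.28). Cdh5, Cd93 and Rasip1 were higher in PyMT-M (0.90, 0.76 and 0.67). Whether Emcn and Cd34 differed beyond other endothelial RNA of the tumor cells was not tested. A change of at least 2-fold was common in tumor cells, with 19.7% of 12553 genes higher and 22.3% lower in PyMT-M. The 4 of 5 genes past 2-fold thus stand beside a background of many. They include Emcn and Cd34, whose few UMIs no interval put above the level in immune cells. The direction of Egfl7 was the same in the 2 classes, and that of Clec14a was opposite.

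The UMIs of the counted genes were spread over many tumor cells. In PyMT-M, 1477 tumor cells held 1 UMI of Egfl7, 652 held 2 and 384 held 3 or more, up to 10, and the top 1% of cells by UMIs took 6.50% of them. For Ecscr the numbers were 1234, 516 and 318, up to 15 UMIs, in PyMT-M, and 730, 367 and 413, up to 16, in PyMT-N. The variance over the mean was 1.40 and 1.16 for Egfl7 (PyMT-M and PyMT-N), and 1.71 and 2.63 for Ecscr. Clec14a in PyMT-N was less even, with 215, 62 and 36 cells holding 1, 2 and 3 or more UMIs and a variance over the mean of 2.17. Emcn came as 1 UMI in 78 of the 79 PyMT-N tumor cells that had it, with a variance over the mean of 1.00. In PyMT-M its value was 1.61, with up to 4 UMIs in a cell, and for Cd34 it was 1.97 in PyMT-M and 1.23 in PyMT-N, with up to 6 and 3 UMIs in a cell.

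The genes differed in how their UMIs per cell moved with depth. Tumor cells were split by total UMIs into 4 groups of equal size. From the shallowest to the deepest group, total UMIs rose 2.88-fold in PyMT-M and 2.83-fold in PyMT-N, and Egfl7 UMIs per cell rose 2.91-fold and 2.73-fold, in step with the total. Cd34 rose 1.78-fold and 3.56-fold and Emcn 2.40-fold and 2.00-fold, from few UMIs, and the list genes Esam and Tie1 rose 2.81-fold and 3.13-fold in PyMT-M, so that a rise with the total was not particular to Egfl7. Ecscr rose more, 3.50-fold and 4.81-fold, and its level in PyMT-N went from 31.5 CPM in the shallowest group to 53.5 CPM in the deepest. Clec14a UMIs per cell stayed level in PyMT-N, at 160 per 1000 cells in the shallowest group and 155 in the deepest, so that its CPM fell from 12.4 to 4.24. Plvap, Calcrl and Aqp1, the list genes most counted in PyMT-N tumor cells, also rose by less than the total there (1.28-fold, 1.37-fold and 1.86-fold). Cycling tumor cells of PyMT-N held Clec14a at 2.02 CPM (1.04 to 3.52) and the others at 6.77 CPM (6.17 to 7.41), while Egfl7 was at 34.8 and 32.1 CPM in cycling and other tumor cells of PyMT-M.

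**Figure D4:**
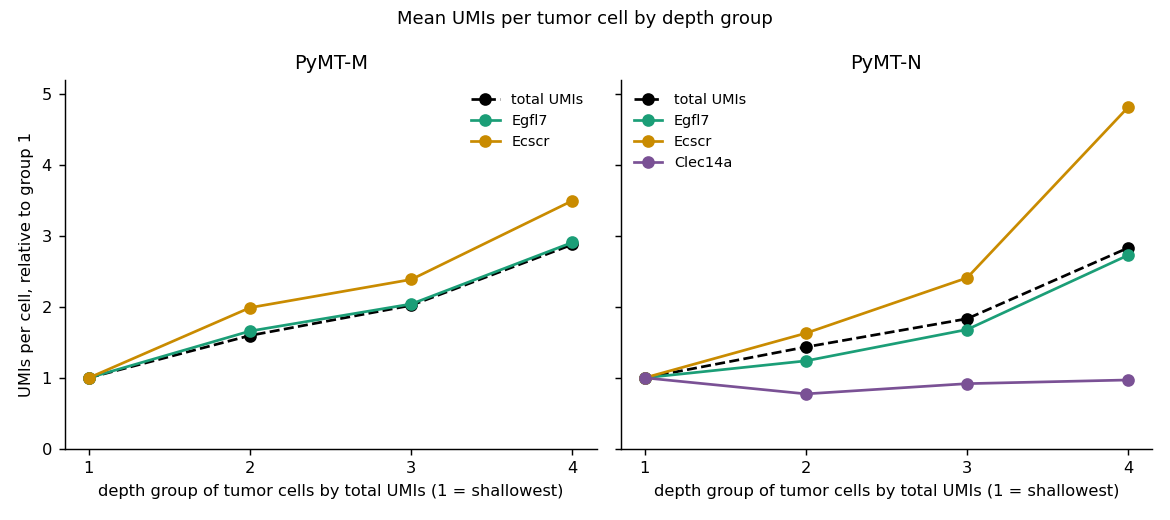
Mean UMIs per tumor cell in 4 equal groups of cells ordered by total UMIs, each divided by its value in the shallowest group, for total UMIs (dashed), Egfl7 and Ecscr in both libraries and Clec14a in PyMT-N. Egfl7 followed the total to 2.91-fold and 2.73-fold, Ecscr rose to 3.50-fold and 4.81-fold, and Clec14a ended at 0.970 of its first value.

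In PyMT-M, tumor cells with Cdh5 held more Ecscr than those without, and more of other endothelial genes too. The 304 tumor cells of PyMT-M with a Cdh5 UMI (median depth 25957 UMIs) held Ecscr at 61.7 CPM (56.5 to 67.2), and the 4598 without (23583 UMIs) at 26.2 CPM (25.2 to 27.1). At 5000 UMIs per cell, 30.0% (24.9 to 35.5) and 11.1% (10.2 to 12.0) had an Ecscr UMI. The level followed the number of Cdh5 UMIs, with 53.6 CPM in the 210 cells with 1, 73.2 CPM in the 64 with 2 and 88.9 CPM (70.7 to 110) in the 30 with 3 or more. Egfl7 was at 39.5 CPM (35.4 to 44.0) with Cdh5 and 34.0 CPM (32.9 to 35.1) without, a smaller difference. Clec14a had 0 UMIs in the 304 cells, which allows up to 0.350 CPM. Of the 28 list genes besides Cdh5, 23 were also higher in the cells with Cdh5, 12 with an interval above 1, and 14 by a larger ratio than the 2.36-fold of Ecscr (2.14 to 2.59). The share of all genes that were higher with Cdh5 is not given, so whether 23 of 28 stands out cannot be read from it. Several of the 14 rest on few UMIs in the Cdh5 cells, such as Sox17 (1), Bcl6b (2) and Sox18 (3). Aqp1 was lower with Cdh5, the 1 gene with an interval below 1 (0.784, 0.702 to 0.874). Among the 14 were the lectin-like receptor Cd93 at 9.91 against 1.08 CPM, the receptor Tie1 at 1.98 against 0.392 CPM and the nitric oxide synthase Nos3 at 5.36 against 1.71 CPM. The lower bounds of the ratios for Cd93 (6.89) and Tie1 (2.71) lay above 2.36, and that for Nos3 (2.22) did not. Their part in the Ecscr difference was not tested.

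In PyMT-N the 125 tumor cells with Cdh5 held Ecscr at 41.8 CPM (35.1 to 49.3) and the 3181 without at 43.7 CPM (42.2 to 45.3), with overlapping intervals. Egfl7 was at 8.05 CPM (5.31 to 11.7) and 5.06 CPM (4.55 to 5.60), and Clec14a at 3.28 CPM (1.64 to 5.87) and 6.54 CPM (5.96 to 7.15). Of the 28 list genes besides Cdh5, 17 were higher in the cells with Cdh5, 2 of them with an interval above 1 (Vwf and Cyyr1). Here too the share of all genes is not given. Emcn and Cd34 gave 5 or 6 UMIs each in the Cdh5 cells of either library. Emcn in PyMT-M was 3.93-fold higher with Cdh5 (1.29 to 10.1), from 6 UMIs in 2 cells. The intervals of Emcn in PyMT-N and of Cd34 in both libraries included 1. Il24, a cytokine gene, was counted in 48 of the 304 PyMT-M tumor cells with Cdh5 (15.8%) and in 109 of the 4598 without (2.37%). In the 48 cells with both, Ecscr was at 67.2 CPM (54.9 to 81.4) and Egfl7 at 33.0 CPM (24.5 to 43.3).

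**Figure D5:**
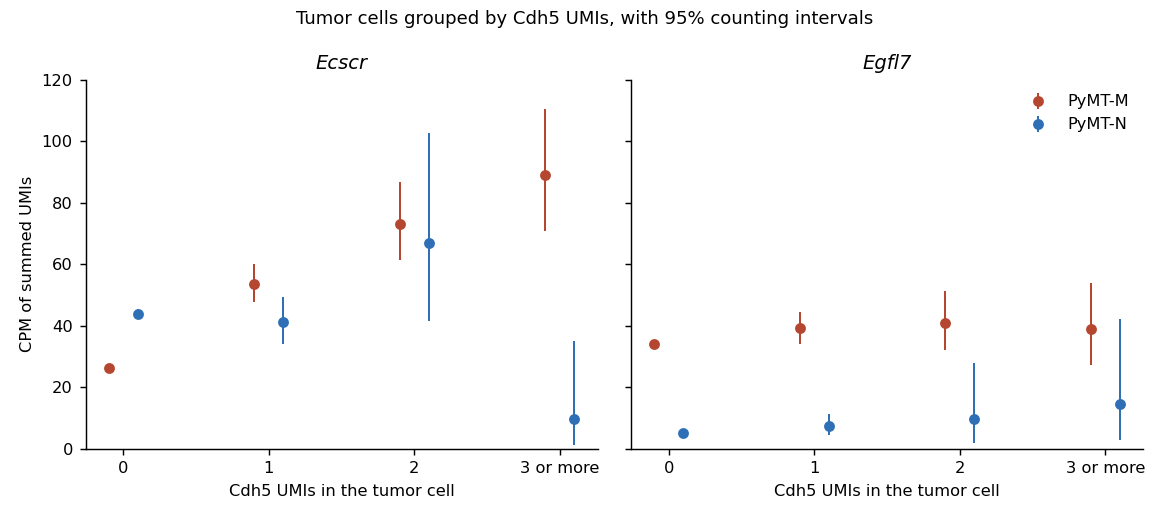
CPM of Ecscr (left) and Egfl7 (right) in tumor cells grouped by their number of Cdh5 UMIs, in PyMT-M (red) and PyMT-N (blue), with 95% counting intervals. Ecscr in PyMT-M went from 26.2 CPM without Cdh5 to 88.9 CPM with 3 or more UMIs, Egfl7 in PyMT-M stayed between 34.0 and 40.9 CPM, and the PyMT-N groups with 2 or more Cdh5 UMIs hold 8 and 6 cells.

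Tumor cells with a UMI of Egfl7, Ecscr, Cd34 or Emcn held more of other endothelial RNA, and they were also deeper. Tumor cells of PyMT-M with an Ecscr UMI held 246 UMIs per 1000 cells of 19 list genes that stood at or below 1% in both libraries (Cdh5 not counted), and those without held 143, at median depths of 26239 and 21913.5 UMIs. For Egfl7 in PyMT-M the values were 220 and 150, at 25787 and 21582 UMIs. In PyMT-N they were 370 and 250 for Ecscr, at 23561.5 and 18805 UMIs, and 445 and 289 for Egfl7, at 23547.5 and 20426 UMIs. Cells with Cd34 held 833 against 182 in PyMT-M and 771 against 295 in PyMT-N, at 27369.5 against 23701.5 and 24383 against 20704.5 UMIs. This RNA was in 8 of the 30 and 21 of the 70 cells with Cd34 (26.7% and 30.0%), against 15.1% and 24.3% of the others. PyMT-N cells with Emcn held 633 against 297, at 24237 and 20707 UMIs. There it was in 20 of the 79 cells (25.3%), a share near the 24.4% of the others. The 21 PyMT-M tumor cells with Emcn held 2333 per 1000, in 7 of the 21 cells, against 177 in the others. In PyMT-N the cells with Clec14a held 259 and those without 310, so Clec14a did not come with more of this RNA there. In tumor cells with no UMI of the low list genes, an alternative added after seeing the data, Ecscr stood at 4.45% and 6.02% of its blood endothelial level. What these cells shared with blood endothelial cells beyond these counts was not tested.

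Fibroblast-like cells (Dcn, Lum and Pdgfra) also held part of the set. Cd34 was at 253 CPM (203 to 312) in the 41 cells of PyMT-M and 29.4 CPM (20.8 to 40.4) in the 60 of PyMT-N. Ecscr was at 93.0 CPM (63.6 to 131) and 63.5 CPM (50.5 to 78.8), which lay above its tumor-cell level in each library. Clec14a had 19 UMIs in the 60 PyMT-N cells, or 14.7 CPM (8.86 to 23.0), and 1 UMI in the 41 of PyMT-M. Egfl7 was at 14.5 and 10.1 CPM and Emcn had 0 and 1 UMI. Dcn, a fibroblast proteoglycan, stood at 3828 and 974 CPM in these classes and at 0.976 and 75.6 CPM in tumor cells. The PyMT-N class also held the list genes most counted in PyMT-N tumor cells. Aqp1 stood at 31.6%, Calcrl at 10.7% and Plvap at 5.17% of the blood endothelial level. In PyMT-M Aqp1 stood at 1.31%, Calcrl at 3.66% and Plvap had 0 UMIs. How much tumor-cell RNA the class holds was not tested.

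Neighbouring genes were checked because reads at a shared end could be counted for the wrong gene. Agpat2, an acyltransferase gene whose 3′ end overlaps that of Egfl7 on the other strand in the GENCODE mouse annotation, was at 29.8 CPM in PyMT-M and 22.4 CPM in PyMT-N tumor cells and at 8.04 and 7.90 CPM in blood endothelial cells. Egfl7 differed 6.62-fold between the models in tumor cells, and the part of Agpat2 reads in its counts was not tested. Ecscr lies on the same strand between Dnajc18 and Sting1, the gene of an innate DNA-sensing adaptor. Sting1 was at 23.3 and 39.7 CPM and Dnajc18 at 16.1 and 25.1 CPM in tumor cells, both higher in PyMT-N as Ecscr was, and their part in the Ecscr counts was not tested. In lymphocytes Sting1 was at 41.6 and 49.4 CPM where Ecscr was at 2.77 and 4.12 CPM, from 1 and 2 UMIs. Gm16897, antisense to Cd34, did not pass 1.41 CPM in any class.

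The genes most like each of the 5 were sought over 11 points (class by library, at least 20 cells) by Pearson correlation of log2(CPM + 1) among 13485 genes, as a description; the points share 2 libraries and differ in depth. Egfl7 went most closely with Ece1, Cdh5 and Synm (r = 0.98 each) and Emcn with Slco2b1, Gpihbp1 and Gm32688 (0.98 each). Ecscr went with Mgll (0.98), Dysf (0.98) and Kctd17 (0.97), and Cd34 with Fzd4 (0.97), Ebf3 (0.96) and Zfp46 (0.96). Clec14a went with Sparcl1 (0.97), Foxf1 (0.96) and 9630028H03Rik (0.96). Among the 5 themselves the closest pair was Egfl7 and Ecscr (0.93), and the least alike was Egfl7 and Clec14a (0.49).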

How the data were processed

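The authors deposited raw UMI counts per gene and cell barcode, 1 filtered 10x Genomics 3′ (v3.1) matrix per library. The submitters' processing notes name Cell Ranger 8.0.0 and the build mm39; the reference sequences used here are of GRCm38.p6, so no coordinates of the files are given. Each model is 1 library pooled from 3 tumors, which leaves no replicate and no test. Cells were kept as the study's methods state (at least 200 genes, at most 10% mitochondrial UMIs), but without its limit on gene number, which was an alternative. Doublets were not removed. Classes were set by the UMI rules in the text; fibroblast-like cells needed 5 UMIs, myeloid cells 5, lymphocytes 3, and a cell that met the blood endothelial and lymphatic rules (7 in PyMT-M, 174 in PyMT-N) counted as lymphatic. CPM is 1 gene's summed UMIs over all UMIs of the class. Ratios carry exact Poisson intervals, and a count of 0 was read against 3 counts. Shares were also computed after thinning each cell to 5000 UMIs by a seeded hypergeometric draw. The background of a comparison is the share of genes past 2-fold. Code was tested on simulated data. The genes, the lists and the classes were chosen with earlier results of these data known. The genes named besides the 5 are the class markers, the 3 highest and 3 lowest of the list, Cdh5 and the 3 most alike. Named after values were seen are Plvap, Calcrl, Aqp1, Esam and Tie1 by depth, Cldn5, Vwf, Esam, Tie1, Cd93 and Rasip1 between models, neighbours and Il24. So are, by Cdh5, Cd93, Tie1, Nos3, Sox17, Bcl6b, Sox18, Aqp1, Vwf and Cyyr1, and in fibroblast-like cells Aqp1, Calcrl and Plvap. Computations ran in Python 3.11.15 with scipy 1.17.1, numpy 2.4.6, scanpy 1.11.5 and pandas 2.3.3.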

Additional observations from a re-analysis of the deposited data

Results flagged for a closer look

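Clec14a differed between the models in opposite directions in the 2 cell classes. In blood endothelial cells its level in PyMT-M over that in PyMT-N had a log2 ratio of 0.81 (0.63 to 0.99), and in tumor cells it was -8.01 (-10.3 to -6.45), from 3 UMIs in PyMT-M against 483 in PyMT-N. The blood endothelial ratio lay below its interval with the study's limit on gene number, and just above it with cells in every class they met, as given below. With 1 library per model the difference between the classes was not tested.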

How the results depend on the processing

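No paired analysis was possible because each model has 1 library. Of 40 log2 ratios recomputed in blood endothelial cells 29 stayed within the counting interval of the reported value, of 43 in tumor cells 37, and of 98 tumor levels as a percent of the blood endothelial level 80. Log2 ratios of Emcn, Cd34 and Clec14a in tumor cells without reference UMIs had too few counts in part and were not all computed. Values outside the interval follow, with PyMT-M before PyMT-N; where no construction is named, the cause was not tested.

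With 3000 UMIs per cell, tumor shares were 9.26% and 1.66% for Egfl7, 7.61% and 10.4% for Ecscr, 0% and 2.36% for Clec14a, 0.0612% for Emcn (PyMT-M) and 0.303% for Cd34 (PyMT-N). With 1000 UMIs, added after seeing the data, they were 2.86% and 0.544% for Egfl7, 3.02% and 3.72% for Ecscr, 0% and 0.696% for Clec14a, 0% and 0.0302% for Emcn, and 0.0408% and 0.0605% for Cd34. Without thinning they were 51.3% and 10.5% for Egfl7, 42.2% and 45.7% for Ecscr, 9.47% for Clec14a (PyMT-N), 0.428% and 2.39% for Emcn, and 0.612% and 2.12% for Cd34. Fewer UMIs per cell lower a share by construction.

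Blood endothelial log2 ratios were 0.28 (Egfl7), -0.36 (Ecscr), -0.31 (Emcn) and -0.15 (Cd34) without cells that hold immune UMIs, a setting added after seeing the data that put Ecscr in PyMT-N tumor cells at 5.94%. With cells in every class they met, the ratios were 0.12 (Cd34), -0.041 (Emcn) and 0.99 (Clec14a), and Clec14a in PyMT-N tumor cells was at 11.9%. With the study's limit on gene number, which left 308 of 569 blood endothelial cells of PyMT-M, they were 0.44 (Clec14a) and 0.26 (Egfl7), and Egfl7 in PyMT-M tumor cells was at 2.22%. Under stricter class rules they were 0.29 (Egfl7) and -0.31 (Emcn).

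As a mean over cells, the tumor log2 ratio of Ecscr was -0.52, and tumor levels were 5.75% (Ecscr, PyMT-N), 1.91% (Egfl7, PyMT-M) and 0.131% (Emcn, PyMT-N). With mitochondrial, ribosomal and hemoglobin genes out of the total, every tumor log2 ratio moved by 0.20, to -0.40 for Ecscr and 2.93 for Egfl7, and PyMT-M tumor levels were 5.96% (Ecscr) and 2.44% (Egfl7). In tumor cells without UMIs of the low list genes (3961 and 2407 cells, added after seeing the data), Ecscr had a log2 ratio of -0.71 and stood at 4.45% and 6.02%. In the 244 and 117 tumor cells with no UMI of any list gene, Egfl7 stood at 1.62% and 0.263% (log2 ratio 2.98), Ecscr at 3.38% and 4.25%, and Clec14a at 0.202% and 8.65% (log2 ratio -4.61). All PyMT-M tumor cells together held 3 Clec14a UMIs, so its PyMT-M value and log2 ratio here rest on no more than these. In the 117 PyMT-N cells Emcn stood at 0.143% and Cd34 at 0.0693%, also from few UMIs.

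Each model is 1 pooled library, so tumors, mice and library preparation cannot be told apart from the model. Lymphatic cells of PyMT-M number 20, and immune cells 326 and 112, which leaves wide intervals for genes with few UMIs. Classes rest on a few marker UMIs, and a droplet that holds 2 cells was not told apart from 1 cell with RNA of both.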
